A study of Mus musculus with 10 samples.

Results

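The replication-dependent histone genes were examined in testes of 4-day-old (P4) mice that had or lacked the ribonuclease DIS3 in male germ cells. The members were the gene rows with the symbols H1f1 to H1f6, or with a symbol that began with H2ac, H2bc, H3c or H4c and a number, matched by Ensembl gene identifier. This gave 70 of the 54232 gene rows. By symbol, 6 were of the linker histone type H1, 20 of H2A, 19 of H2B, 12 of H3 and 13 of H4. In the build of the deposited table (GRCm38), 56 lie on chromosome 13, 10 on chromosome 3, 3 on chromosome 11 and 1 on chromosome 6, and 2 of the 70 (H2ac5-ps and H2ac14-ps) are pseudogenes. Both groups were male mice of the same age, 5 per group. Each library held the total RNA of the testes of a single mouse, so the p-values measure the spread between mice. The paper states that the floxed Dis3 line was made in zygotes of B6D2F1 parents. The controls were labelled Dis3 WT. The Dis3 cKO mice, labelled Dis3 KO, carried a floxed and a deleted Dis3 allele with Ddx4-Cre, a transgene active in male germ cells from before birth. The somatic cells of these testes therefore still held 1 intact allele, and the whole organ was sequenced. The question was how the levels of these histone mRNAs compared between control and Dis3 cKO testes.

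DIS3 is a catalytic subunit of the nuclear RNA exosome, which trims and degrades RNA from its 3′ end. Replication-dependent histone genes supply the bulk of the histones that package new DNA, and their mRNAs are made in S phase. They are the only known animal mRNAs that mostly end without a poly(A) tail, at a conserved stem-loop that is bound by the stem-loop binding protein SLBP. The factor NPAT, a target of cyclin E and CDK2, activates their transcription at histone locus bodies. Because the libraries were primed with random as well as poly(T) primers, an mRNA without a tail could be counted.

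Summed gene counts ranged from 35391042 to 41104912 in the control libraries and from 28538849 to 37739906 in the Dis3 cKO libraries. Histone genes took 0.497% to 0.584% of these in control and 0.349% to 0.555% in Dis3 cKO. All values below are counts normalised for library size (TMM, in edgeR) unless another scale is named. Dis3 itself was at 4115, 4296, 4314, 5161 and 5091 in control 1 to 5 and 1385, 1372, 1362, 1641 and 1709 in Dis3 cKO 1 to 5, and the groups did not overlap (log2 fold change -1.62 ± 0.09, SE; edgeR adjusted p = 3.78e-07). Of 14 germ cell markers, 13 were tested and 4 fell, and the germline helicase Ddx4 was detected in each library, from 1942 to 3986. The libraries also stood apart by replicate number. In both groups, replicates 4 and 5 separated from replicates 1 to 3 on the first principal component, which held 29.98% of the variance left after the group means were removed. The labels do not say what the split is, so values within each set of libraries are given for the members past the threshold. In controls, 64 histone genes had a mean of at least 20 in replicates 1 to 3. The control mean of replicates 4 and 5 was over 1.5 times that of replicates 1 to 3 for 7 of them and under it by as much for 18.

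The stem-loop was looked for in the transcripts of GENCODE M39 (GRCm39), where 68 members were matched. Of the 54 with an annotated 3′ UTR, 47 held it (87.0%), against 24 of 21067 other coding genes (0.114%). Shown here are the stem-loops of the 5 members past the threshold of the comparison that have one and of H4c11, just outside it. The capitals mark the 16 bases of the 6-base stem, the 4-base loop and the 6-base stem, and lower case marks 5 bases on each side.

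H2ac25: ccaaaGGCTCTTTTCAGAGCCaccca

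H2bc12: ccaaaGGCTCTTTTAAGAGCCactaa

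H2bc27: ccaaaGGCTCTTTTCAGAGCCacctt

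H3c3: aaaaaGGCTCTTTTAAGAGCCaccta

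H4c1: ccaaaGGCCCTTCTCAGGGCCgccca

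H4c11: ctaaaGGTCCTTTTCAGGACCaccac

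H2ac25, the member that rose, and H2bc27, a member that fell, carried the same 16 bases. H1f1 has an annotated 3′ UTR without a match. Its model ends at base 741, with the stop codon ending at base 693, so a stem-loop further on would be missed. The models of H2ac1 and H2bc1 end at the stop codon, so their 3′ ends could not be searched.

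Promoters were read from RefSeq (GRCm38.p6), with 250 bases before and 50 after the start, for 58 members in 59 entries. The letters CCAAT, on either strand, stood in 51 of the 59 (86.4%) and in 37.4% of all 32851 promoters. TATAAA, on either strand, stood in 34 of the 59 (57.6%) and in 13.6% of all promoters. The 2 motifs share no overlapping letters in the windows shown. Shown here are the 250 bases before the start of 4 members that fell in Dis3 cKO testes, 5′ to 3′ on the gene's strand, with both motifs in capitals on either strand.

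H2ac1 (chr13:23934187-23934436, plus strand): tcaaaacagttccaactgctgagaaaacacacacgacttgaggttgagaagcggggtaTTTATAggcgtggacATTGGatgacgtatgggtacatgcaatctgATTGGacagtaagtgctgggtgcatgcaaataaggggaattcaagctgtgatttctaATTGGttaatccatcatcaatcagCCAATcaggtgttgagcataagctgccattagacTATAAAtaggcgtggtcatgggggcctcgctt

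H1f1 (chr13:23763418-23763667, plus strand): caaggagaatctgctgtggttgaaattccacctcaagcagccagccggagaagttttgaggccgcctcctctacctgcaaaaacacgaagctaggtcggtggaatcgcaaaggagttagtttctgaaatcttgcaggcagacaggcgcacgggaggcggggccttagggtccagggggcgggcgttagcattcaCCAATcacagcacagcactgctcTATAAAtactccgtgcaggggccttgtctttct

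H2bc12 (chr13:22035571-22035820, plus strand): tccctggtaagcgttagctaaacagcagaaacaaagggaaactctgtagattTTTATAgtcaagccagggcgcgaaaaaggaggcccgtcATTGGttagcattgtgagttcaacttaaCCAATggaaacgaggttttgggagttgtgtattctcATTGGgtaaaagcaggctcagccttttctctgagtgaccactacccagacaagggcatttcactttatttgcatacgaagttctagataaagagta

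H3c3 (chr13:23745522-23745771, minus strand): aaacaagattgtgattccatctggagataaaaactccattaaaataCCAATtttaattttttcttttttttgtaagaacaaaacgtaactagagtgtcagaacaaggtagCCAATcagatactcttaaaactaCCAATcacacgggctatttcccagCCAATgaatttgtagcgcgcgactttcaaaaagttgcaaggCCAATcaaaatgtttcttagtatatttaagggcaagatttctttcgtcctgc

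The window of H2ac1 is also most of the promoter of H2bc1. The 2 genes are transcribed away from each other from starts 281 bases apart, with 4 CCAAT and a pair of TATAAA letters between them. The H3c3 window held 5 CCAAT and no TATAAA, and the H1f1 window held 1 of each. A match is a description of these letters only.

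Levels between members were compared per kilobase of exon. H2ac15, on chromosome 13, was the highest member at 101374 normalised counts per kilobase in control testes, 33.4% of the summed per-kilobase level of the 70 members. It was followed by the linker histone gene H1f1 at 21216, then H4c1 at 17083 and H4c3 at 15716 per kilobase. This order depends on the annotated row length, which differs widely between members. H1f4 had a higher mean control count than H1f1 (19417 against 15721), but on a row of 1930 bases against 741. H1f3, at a mean control count of 7929, has a row of 7425 bases and came to 1068 per kilobase. The highest H2B gene was H2bc3 at 9599 and the highest H3 gene was H3c6 at 3588. The control median over the 70 members was 1481 per kilobase, and 41 members were above 1000. On the other chromosomes the highest members were H2ac20 on chromosome 3 at 5800.4, H2bc26 on chromosome 11 at 333 and H4c16 on chromosome 6 at 123. H3c14 had no count in any library. Histone coding sequences are much alike, and the counting program at its defaults leaves out reads that align to several places and reads shared by overlapping genes on 1 strand, so levels of near-identical members are uncertain. H2bc6 and H1f4 overlap in this way, as do H2ac25 and Trim17.

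Most replication-dependent histone genes had lower point estimates in Dis3 cKO testes, and few passed the test. Of the 70, 66 passed the filter on low counts (H2ac18, H2ac19, H2ac24 and H3c14 did not). In the edgeR quasi-likelihood test across 20043 genes, 7 of the 66 fell (H1f1, H2ac1, H2bc1, H2bc12, H2bc27, H3c3 and H4c1) and 1 rose (H2ac25). Over all tested genes 3.48% fell and 4.42% rose. The median log2 fold change was -0.29 over the 66 histone genes and -0.01 over all tested genes, and the estimate was below 0 for 53 of the 66 (80.3%) and for 52.0% of all tested genes. By library, the median log2 ratio of the 66 to their control means was -0.58, -0.01, 0.07, -0.76 and -0.57 in Dis3 cKO 1 to 5. In the control libraries this median ran from -0.23 to 0.12, so Dis3 cKO 2 and 3 lay within the control range. At an unadjusted p under 0.05, 22 members were lower and 1 higher, where 12.1% and 11.8% of all genes were. All Dis3 cKO libraries lay below all control libraries for 5 members and above for 1, against 4.31% and 4.59% of all tested genes. In bulk RNA of a whole testis, fewer cells of a type and less RNA per cell cannot be told apart. Just outside the threshold were H4c11 (adjusted p = 0.052) and H2bc15 (adjusted p = 0.0543), named after their values were seen. The count of members that fell was 3 without control 5 or without Dis3 cKO 5, 4 without Dis3 cKO 1 or without Dis3 cKO 4, and 14 without Dis3 cKO 3, and no member rose without control 1, 4 or 5 or without Dis3 cKO 1, 2 or 5. Over 18 alternatives, H2ac1 passed the threshold in 18, H1f1 in 17, H2bc12 in 14, H2bc1 and H3c3 in 12, H4c1 in 11, H2ac25 in 10 and H2bc27 in 9. With no filter on low counts 17 fell, and with a trend of fold change on row length removed 4 fell. The share of all genes called in the leave-out, unfiltered and length-trend runs is not given here.

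**Figure D1:**
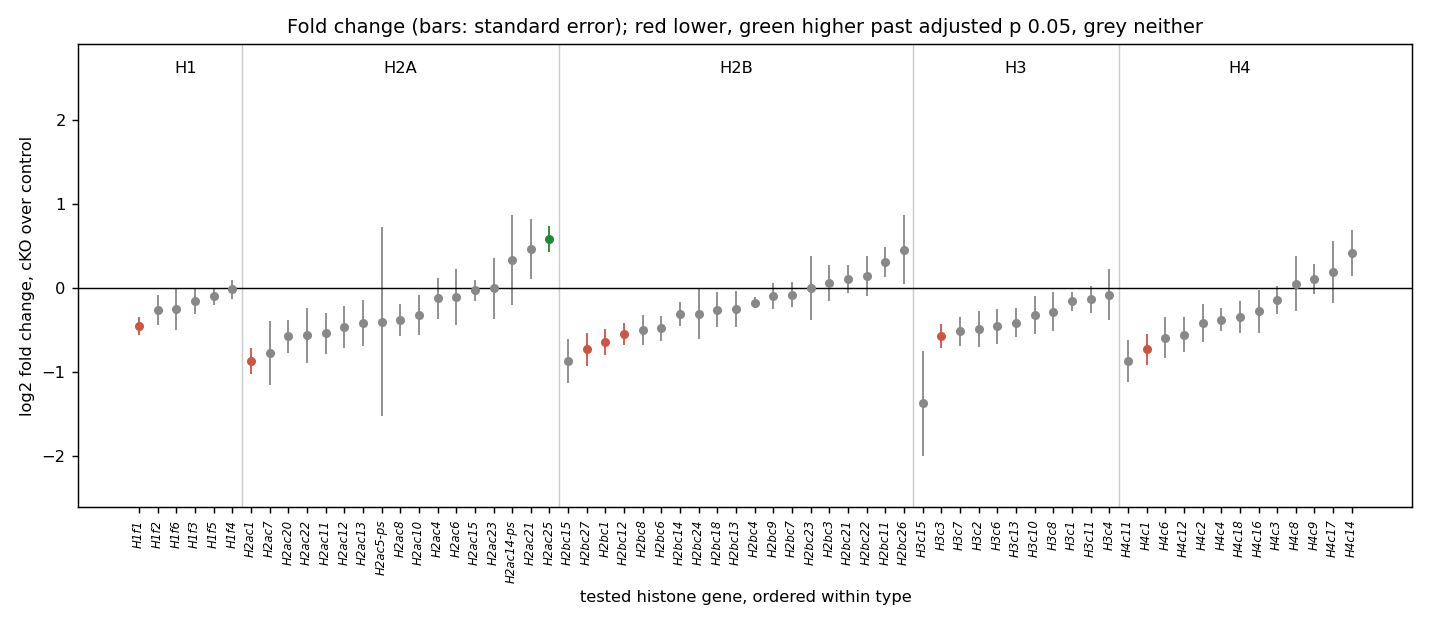
Log2 fold change of Dis3 cKO over control for the 66 tested histone genes, grouped by histone type and ordered within it, with standard errors (5 libraries per group, edgeR). Red points fell and the green point rose past an adjusted p of 0.05, and 53 of the 66 points lie below 0.

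The testis histone pair H2ac1 and H2bc1, which encode the H2A and H2B variants known from spermatogenic cells, both fell. H2ac1 (GRCm38 chr13:23934462-23934851) was at 1893, 1655, 1758, 1409.9 and 1411 in control 1 to 5 and 901, 1025, 1163, 584 and 790.4 in Dis3 cKO 1 to 5. Every Dis3 cKO library was below every control library, with means of 1625 ± 213 and 893 ± 222 (SD, n = 5 each) and a log2 fold change of -0.86 ± 0.15 (edgeR adjusted p = 0.00478; exact permutation p = 0.00794, two-sided, the smallest that 5 against 5 can give). The change was past the threshold in both sets, at -0.78 in replicates 1 to 3 and -1.03 in replicates 4 and 5. Its divergent neighbour H2bc1 (chr13:23933773-23934156) was at 294, 318, 257, 349 and 363 in control 1 to 5 and 177, 256, 235, 145 and 200.4 in Dis3 cKO 1 to 5. These groups did not overlap either, although the gap was small, and the log2 fold change was -0.64 ± 0.16 (adjusted p = 0.0242; exact permutation p = 0.00794). Within replicates 1 to 3 the log2 fold change of H2bc1 was -0.37 (adjusted p = 0.178), and within replicates 4 and 5 it was -1.04 (adjusted p = 0.00028). Among 13 tested germ cell markers, 4 fell (Dazl, Mael, Tdrd9 and Tex101), where 3.48% of all tested genes did. The estimate was below 0 for 11 of them, while Gfra1 and Nanos2 were at 0.07 and 0.09 on the log2 scale. Ddx4 was at -0.26 and did not pass (edgeR adjusted p = 0.323). The summed level of the 14 listed markers was 23765 to 27909.8 in control and 15817 to 21766 in Dis3 cKO. No marker of that list was at 0 in all libraries, and its part in the histone result was not tested. H1f6, the testis linker histone gene also known as H1t, was at 123 to 240.2 in control and 80.9 to 214 in Dis3 cKO, and did not pass the test (log2 fold change -0.25 ± 0.25, adjusted p = 0.592).

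Among the linker histones, which bind DNA between nucleosomes, H1f1 passed the threshold in the pooled fit, and H1f2 was also called lower with the library set as a term (adjusted p = 0.0172). H1f1 was at 13625, 14112, 13321, 19169.5 and 18378 in control 1 to 5 and 11227, 12583, 11936, 10661 and 10985 in Dis3 cKO 1 to 5. Control replicates 4 and 5 were the highest libraries, and all Dis3 cKO libraries lay below the lowest control. The means were 15721 ± 2815 and 11478 ± 775 (SD, n = 5 each), with a log2 fold change of -0.45 ± 0.11 (adjusted p = 0.0189; exact permutation p = 0.00794). Its fold change was -0.20 in replicates 1 to 3 (adjusted p = 0.105) and -0.79 in replicates 4 and 5 (adjusted p = 2.81e-09), and the difference between the sets passed its own test (adjusted p = 0.000989). The other 5 H1 genes had log2 fold changes between -0.26 and -0.01. H1f4, the second H1 gene per kilobase, was at 19417 and 19216 on average in control and Dis3 cKO (log2 fold change -0.01 ± 0.11, adjusted p = 0.954).

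H2A is a core histone paired with H2B in the nucleosome. Of 17 tested rows of type H2A, H2ac1 fell and H2ac25 rose, with a median log2 fold change of -0.38. These rows include the pseudogenes H2ac5-ps and H2ac14-ps. H2ac25, on chromosome 11, was at 129.5, 155, 136, 102 and 103 in control 1 to 5 and 226, 179, 161, 166 and 205 in Dis3 cKO 1 to 5. All Dis3 cKO libraries were above all control libraries (log2 fold change 0.58 ± 0.16, adjusted p = 0.0389; exact permutation p = 0.00794). The log2 fold change of H2ac25 was 0.43 in replicates 1 to 3 (adjusted p = 0.158) and 0.87 in replicates 4 and 5 (adjusted p = 0.00789). Its row spans 2146 bases, and 1643 of them lie beyond the stem-loop. The highest member, H2ac15, was at 39943, 42261, 42493, 35649 and 38854 in control 1 to 5 and 48052, 44538, 41779.9, 29676 and 31476 in Dis3 cKO 1 to 5. Dis3 cKO 1 was the highest of the 10 and Dis3 cKO 4 the lowest, so the groups overlapped fully (log2 fold change -0.03 ± 0.12, adjusted p = 0.925). H2ac10, the second H2A gene per kilobase, differed by -0.32 ± 0.24 on the log2 scale (adjusted p = 0.468). H2ac21, on chromosome 3, had the highest estimate among the members not called, at 0.47 ± 0.36 (adjusted p = 0.476).

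Of 19 tested H2B genes, 3 fell (H2bc1, H2bc12 and H2bc27) and none rose, with a median log2 fold change of -0.25. H2bc12 was at 349, 340.3, 368, 444 and 421 in control 1 to 5 and 218, 319, 296, 224 and 257 in Dis3 cKO 1 to 5. The groups did not overlap, with a log2 fold change of -0.55 ± 0.13 (adjusted p = 0.0212; exact permutation p = 0.00794). The log2 fold change of H2bc12 was -0.34 in replicates 1 to 3 (adjusted p = 0.185) and -0.84 in replicates 4 and 5 (adjusted p = 0.000428). H2bc27, a low gene on chromosome 11 near H2ac25, was at 135, 173, 142, 92.97 and 95.6 in control 1 to 5 and 87.6, 80.7, 79.4, 67.6 and 70.2 in Dis3 cKO 1 to 5. Here control replicates 4 and 5 were the lowest controls and still lay above the highest Dis3 cKO library (log2 fold change -0.73 ± 0.19, adjusted p = 0.0355; exact permutation p = 0.00794). The log2 fold change of H2bc27 was -0.86 in replicates 1 to 3 (adjusted p = 0.0129) and -0.44 in replicates 4 and 5 (adjusted p = 0.299). H2bc26, which lies between H2bc27 and H2ac25, was at 57.9 to 229 in control and 104 to 310.5 in Dis3 cKO, with both groups split by library set (log2 fold change 0.45 ± 0.41, adjusted p = 0.552). The 3 chromosome 11 genes, within 7911 bases, thus held 1 member that fell, 1 that rose and 1 that did not pass. The 2 highest H2B genes per kilobase, H2bc3 and H2bc14, did not pass in the pooled fit (adjusted p = 0.911 and 0.212).

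The H3 and H4 genes encode the histones that form the core tetramer of the nucleosome, and 1 of each type fell. H3c3 was at 1978, 1403, 1491, 1583 and 1682 in control 1 to 5 and 1066, 1291, 1419, 813 and 879.9 in Dis3 cKO 1 to 5. The highest Dis3 cKO library lay within the control range, so the groups overlapped (log2 fold change -0.57 ± 0.14, adjusted p = 0.0272; exact permutation p = 0.0159). The log2 fold change of H3c3 was -0.37 in replicates 1 to 3 (adjusted p = 0.119) and -0.94 in replicates 4 and 5 (adjusted p = 3.55e-07). All 11 tested H3 genes had estimates below 0, with a median of -0.41, and 6 were lower at an unadjusted p under 0.05. The 2 highest H3 genes per kilobase, H3c6 and H3c8, had log2 fold changes of -0.46 ± 0.20 and -0.28 ± 0.23 (adjusted p = 0.19 and 0.513). With the library set as a term H3c6 was called lower (adjusted p = 0.00993). H3c15 had the lowest estimate of the members not called, at -1.37 ± 0.62 (adjusted p = 0.196), and that estimate turned on control 5, at 501 where the other controls were at 37.4 to 164. Without control 5 its log2 fold change was -0.29.

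H4c1, the highest H4 gene per kilobase in control testes, was at 7424, 7877, 9410.3, 10202 and 11125 in control 1 to 5 and 3819, 7254, 7681, 4266 and 4816 in Dis3 cKO 1 to 5. Dis3 cKO 2 and 3 were at the level of the lowest controls and the other Dis3 cKO libraries well below (log2 fold change -0.73 ± 0.18, adjusted p = 0.0273; exact permutation p = 0.0159). The log2 fold change of H4c1 was -0.40 in replicates 1 to 3 (adjusted p = 0.253) and -1.22 in replicates 4 and 5 (adjusted p = 7.45e-11). The next H4 gene per kilobase, H4c3, came to -0.15 ± 0.17 (adjusted p = 0.657), and H4c16, the lone member on chromosome 6, had -0.27 ± 0.26 (adjusted p = 0.57). The median over the 13 H4 genes was -0.34.

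**Figure D2:**
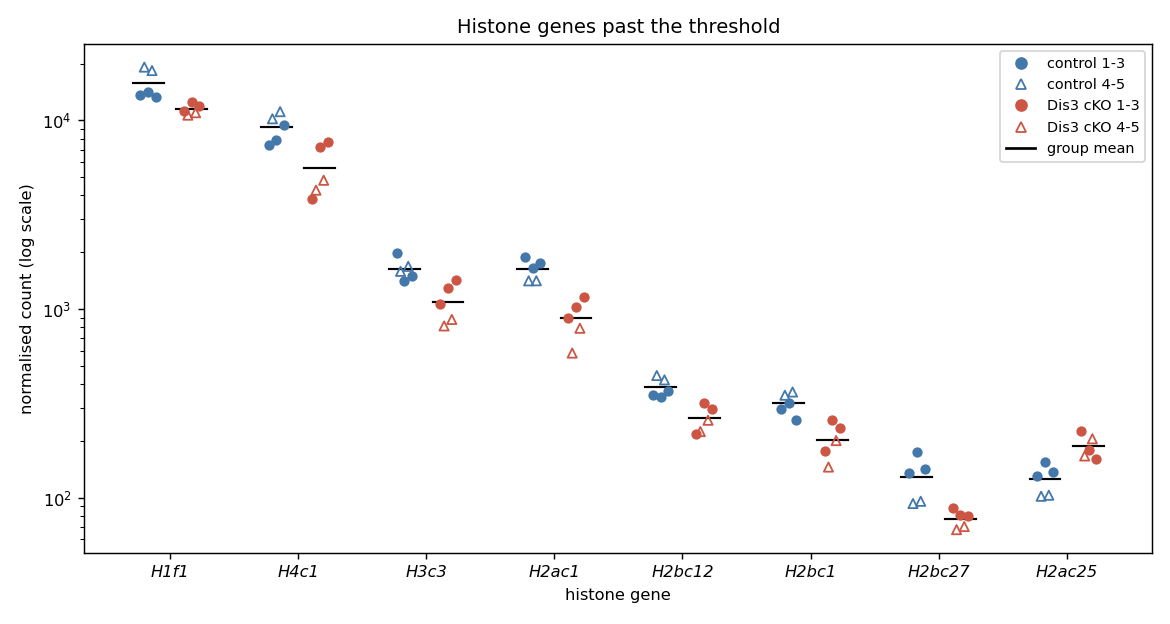
Normalised counts (log scale) of the 8 histone genes past the threshold in 5 control and 5 Dis3 cKO libraries. Circles are replicates 1 to 3, open triangles replicates 4 and 5, and bars the group means. The groups did not overlap for H1f1, H2ac1, H2bc12, H2bc1, H2bc27 and H2ac25.

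The histone total differed less than the spread among Dis3 cKO mice. The summed normalised count of the 70 members was 186945, 194912, 196539, 170304 and 177415 in control 1 to 5 and 155355, 189137, 199007, 123478 and 137482 in Dis3 cKO 1 to 5, means of 185223 ± 11274 and 160892 ± 32516 (SD, n = 5 each). Dis3 cKO 2 lay in the control range, Dis3 cKO 3 was the highest of the 10 libraries, and Dis3 cKO 1, 4 and 5 lay below all controls. The mean was lower in Dis3 cKO by 11.96% for H1, 7.89% for H2A, 10.4% for H2B, 22.3% for H3 and 19.2% for H4, and the groups overlapped for each type. H2A had the smallest difference and also holds H2ac15, which made up 21.5% of the members' counts in control. Without H2ac15 the total of the other 69 was lower by 16.2%, against 13.1% with it. No test was made of these sums.

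**Figure D3:**
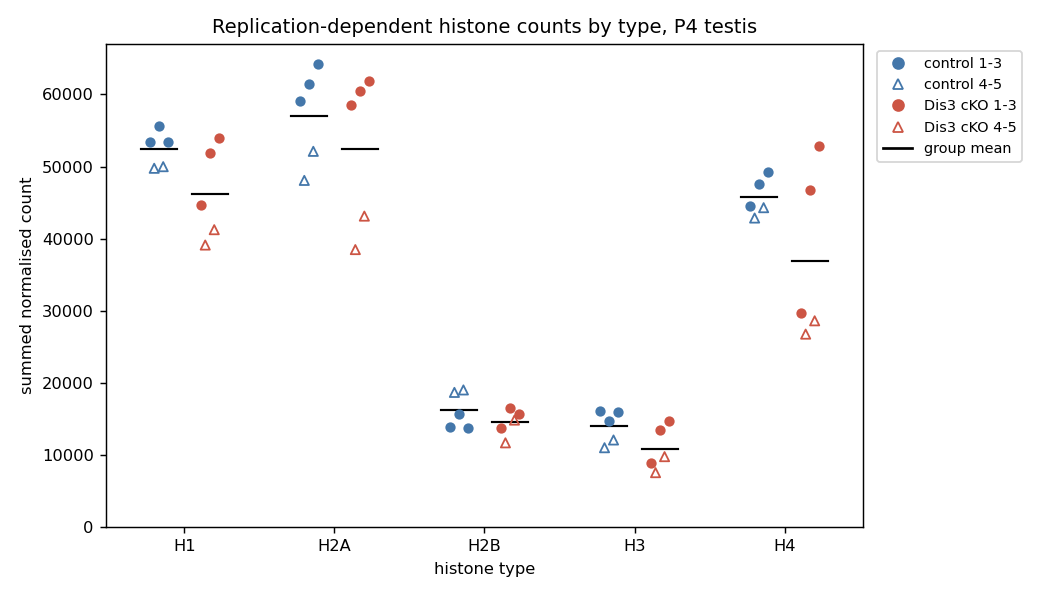
Summed normalised count of the histone genes of each type in every library (linear axis from 0). Circles are replicates 1 to 3, open triangles replicates 4 and 5, bars the group means of 5 libraries. Control and Dis3 cKO libraries overlap for each of the 5 types, and Dis3 cKO 4 is the lowest library for each.

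By chromosome, the 55 tested genes on chromosome 13 had a median log2 fold change of -0.31, with 6 lower and none higher. The 7 tested genes on chromosome 3 had a median of -0.26, with none past the threshold in edgeR or DESeq2 and 3 lower at an unadjusted p under 0.05, and the chromosome 11 genes had a median of 0.45. The 3′ end of the annotated row was also set beside the fold change, without a test. The 18 tested members whose transcript runs over 300 bases beyond the stem-loop had a median of -0.16, with none lower and H2ac25 higher. The 25 tested members with a shorter stretch beyond it had a median of -0.34, with 4 lower and none higher. The 23 without a stem-loop in the annotated row had a median of -0.32, with 3 lower. At an unadjusted p under 0.05, 7, 9 and 6 members of these groups were lower, and with the library set as a term 6, 6 and 5 were called lower. Of the 23 without a stem-loop in the row, 14 have models that end at the stop codon. The pseudogenes H2ac5-ps and H2ac14-ps, also among the 23, had no matched transcript. For all of these the 3′ end could not be searched, so the 23 are not known to lack a stem-loop.

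The number of histone genes past the threshold differed between the library sets. Within replicates 1 to 3 (3 against 3), 3 histone genes were called lower (H2ac1, H2ac20 and H2bc27; background 2.74%) and 3 higher (H2bc3, H2bc22 and H4c14; background 4.8%). Within replicates 4 and 5 (2 against 2), 34 were called lower and 3 higher, where 11.7% of all genes were called in each direction. With the library set as a term in the fit, 17 members were lower and 2 higher (H2ac25 and H2bc26), against 8.33% and 8.84% of all genes. The 17 were the 7 of the pooled fit with H1f2, H2ac20, H2bc6, H2bc8, H2bc15, H3c6, H3c7, H3c13, H4c4 and H4c11. A test of the difference of the fold change between the sets, over all genes, was passed by 9 members. For 8 of them the fold change was lower in replicates 4 and 5 (2.02% of all genes), and for 1, the pseudogene H2ac5-ps, it was higher (2.56%).

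Apart from H2ac5-ps, the largest of these differences was at H4c11, which was at 1081, 1069, 1171, 2116 and 2180.4 in control 1 to 5 and 688, 1131, 1167, 578 and 616 in Dis3 cKO 1 to 5. Control 4 and 5 were the highest of the 10 libraries, while Dis3 cKO 4 and 5 were the lowest. Its log2 fold change was -0.15 in replicates 1 to 3 and -1.84 in replicates 4 and 5, a difference of -1.70 (adjusted p = 0.000101). H2bc3 was at 3201, 3824, 3206, 7260.4 and 6888 in control 1 to 5 and 4967, 5539, 4982, 4116 and 5757 in Dis3 cKO 1 to 5. It was higher in Dis3 cKO in the first set (0.60) and lower in the second (-0.51), both past the threshold, and the difference was -1.12 (adjusted p = 0.00034). H2bc22 also changed in opposite directions, at 0.70 and -0.74. The others were H1f1, H2ac15, H2bc6, H2bc14 and H4c14. Germ cell markers had a median log2 fold change of -0.20 in replicates 1 to 3 and -0.81 in replicates 4 and 5, and their part in the histone values was not tested.

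**Figure D4:**
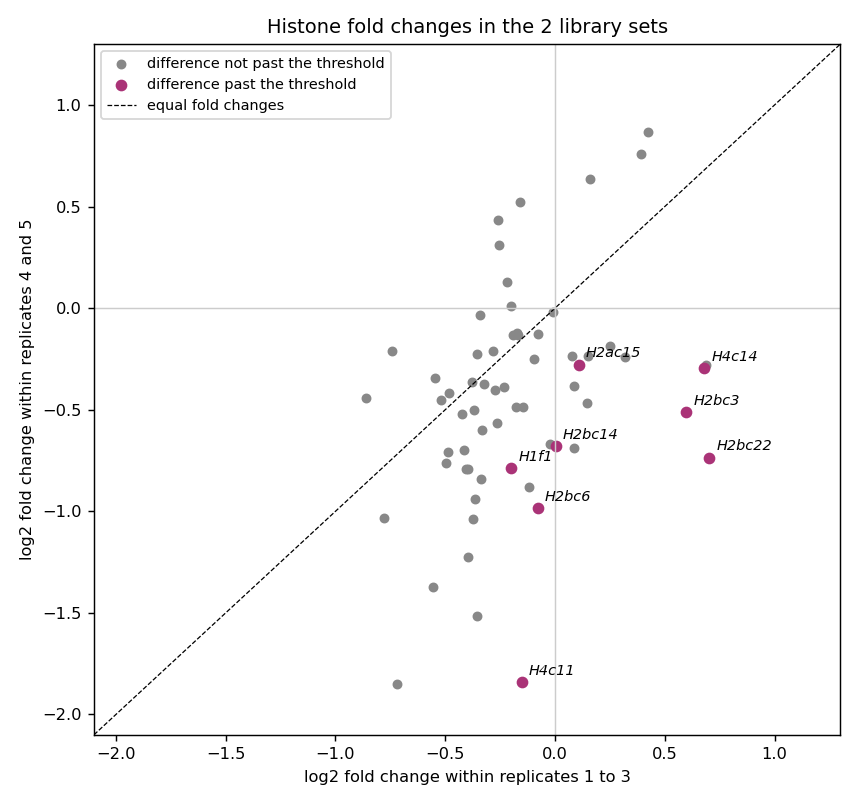
Log2 fold change of Dis3 cKO over control within replicates 4 and 5 against that within replicates 1 to 3, 1 point per histone gene (H2ac5-ps, at -2.77 and 4.64, lies outside the axes). The named points passed the test of the difference, and all 8 lie below the dashed line of equal fold changes.

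Genes that supply or handle histones were counted in 6 lists. Over all tested genes, 3.48% fell and 4.42% rose in edgeR. Of 25 S-phase genes, 6 fell in edgeR and none rose, with a median log2 fold change of -0.21 and 23 estimates below 0. Those that fell were Cdc45, Gins2, Gins1, Rpa2, Lig1 and Tyms, all with roles in DNA replication or nucleotide supply. Pole, of the same list, was at 0.20 ± 0.06 on the log2 scale, with all Dis3 cKO libraries above all controls. Its adjusted p was 0.0599 in edgeR and 0.0268 in DESeq2. The helicase subunit gene Cdc45 was at 1259 ± 63.6 in control and 1000.1 ± 66.3 in Dis3 cKO (SD, n = 5; log2 fold change -0.33 ± 0.07, edgeR adjusted p = 0.0134). The summed level of this list was 95444 to 104693 in control and 83658 to 93977 in Dis3 cKO, without overlap. The ratio of the histone sum to the S-phase sum was 1.63 to 2.06 in control and 1.46 to 2.12 in Dis3 cKO, so it overlapped.

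Of 16 histone chaperone genes, 2 fell: Chaf1b, a subunit of the assembly factor CAF-1 (log2 fold change -0.44 ± 0.08, adjusted p = 0.0048), and the histone acetyltransferase Hat1 (-0.42 ± 0.10, adjusted p = 0.0178). Of 13 transcription factor and kinase genes, Ccne2, which encodes cyclin E2, fell (-0.34 ± 0.09, adjusted p = 0.027) and Pou2f1, which encodes the octamer-binding factor OCT1, rose (0.40 ± 0.09, adjusted p = 0.02). Npat was at 4874 ± 146 and 4994 ± 192, and did not pass (adjusted p = 0.76). Of 14 tested 3′ end processing genes, 1 fell, Snrpe, a subunit of the small nuclear RNP core (-0.41 ± 0.10, adjusted p = 0.0258). The log2 fold change of Slbp was -0.15 ± 0.08 (adjusted p = 0.294). None of 11 histone mRNA decay genes passed the edgeR test or DESeq2, and 3 had an unadjusted p under 0.05 in edgeR. At that unadjusted level 12.1% of all tested genes were lower and 11.8% higher.

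Of 12 replication-independent variant genes, most of whose mRNAs are polyadenylated, Cenpa, the centromeric H3, passed the threshold in edgeR. It fell by 0.35 on the log2 scale (SE 0.09, adjusted p = 0.0257). The log2 fold changes of H2az1, H3f3a, H3f3b and H2ax were -0.38, -0.23, -0.09 and -0.08 (adjusted p = 0.0664, 0.168, 0.553 and 0.829). DESeq2 called 3 of the 12 lower: Cenpa, H2az1 (adjusted p = 0.0329) and H3f5 (0.0304). The median over these 12 was -0.15, set beside -0.29 over the 66 replication-dependent genes.

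Somatic cell markers were set beside these values. None of 10 Sertoli cell markers and none of 6 macrophage or 6 tested erythroid markers passed the edgeR test or DESeq2, and 2, 1 and 0 of them had an unadjusted p under 0.05 in edgeR. At that unadjusted level 12.1% of all tested genes were lower and 11.8% higher, and after adjustment 3.48% fell and 4.42% rose. Of 6 Leydig cell markers, Cyp17a1 fell in edgeR, and Lhcgr was at 0.27 ± 0.09 on the log2 scale, with all Dis3 cKO libraries above all controls (adjusted p = 0.0698 in edgeR and 0.0393 in DESeq2). Of 6 peritubular myoid markers, Myh11 rose, and of 6 endothelial markers, Cdh5 rose. The summed level of the myoid list differed by library set in control (46798 to 75016, lowest in replicates 4 and 5) and was 60204 to 76481 in Dis3 cKO. The part of these cells in the histone values was not tested.

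Reads on the opposite strand upstream of histone genes were higher in Dis3 cKO testes at several members. The promoter upstream transcript (PROMPT) regions are the 3000 bases before a gene's start, and reads were counted on the strand opposite to the gene. PROMPTs are short-lived RNAs known as exosome substrates. A region was given for 9 members, none overlapping another gene of the table, and all 9 were tested. Of these, 5 were higher in Dis3 cKO (H1f2, H2bc27, H3c6, H4c3 and H4c11) and none lower, against 13.6% of all 12345 tested regions called higher. The median log2 fold change was 1.16 over the 9 and 0.64 over all.

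The H4c3 region (chr13:23698455-23701454) was at 4.66, 1.89, 0, 3.83 and 3.68 in control 1 to 5 and 50.6, 52.2, 26.8, 21.05 and 24.9 in Dis3 cKO 1 to 5. Every Dis3 cKO library exceeded every control (log2 fold change 3.61 ± 0.53, edgeR adjusted p = 1.11e-09; exact permutation p = 0.00794). The region upstream of H1f2 (chr13:23735808-23738807) was at 27.03, 14.1, 1.68, 14.4 and 11.9 in control 1 to 5 and 67.9, 56.02, 67.1, 29.9 and 41.9 in Dis3 cKO 1 to 5. The groups did not overlap there (log2 fold change 1.92 ± 0.37, adjusted p = 6.96e-06), nor at H2bc27 (chr11:58945920-58948919), at 10.3, 11.3, 5.88, 9.58 and 11.9 in control 1 to 5 and 33.3, 54.1, 39.1, 26.6 and 28.3 in Dis3 cKO 1 to 5 (log2 fold change 1.88 ± 0.43, adjusted p = 0.000218). At H4c11 and H3c6 the groups overlapped, with log2 fold changes of 2.14 ± 0.39 and 1.16 ± 0.26 (adjusted p = 2.03e-06 and 0.000169). The other regions, at H2ac4, H4c4, H1f4 and H3c11, had log2 fold changes of 0.86, 0.94, 0.32 and 0.27 and did not pass (adjusted p from 0.517 to 0.927).

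Of the 5 genes whose region rose, H2bc27 itself fell in the pooled fit, and the others did not pass that test, with log2 fold changes of -0.26, -0.46, -0.15 and -0.86 for H1f2, H3c6, H4c3 and H4c11. With the library set as a term, H1f2, H3c6 and H4c11 were also called lower (adjusted p = 0.0172, 0.00993 and 0.0359) and H4c3 was not (0.113). Histone genes are packed closely, so the distance to the nearest tested gene on the strand of the counted reads, lying before the region in their direction, was measured. It was 1684 bases for H3c6 (from H1f3), 1730 for H4c3 (from H1f6), 5129 for H2bc27 (from H2bc26), 6166 for H1f2 (from H3c3) and 15131 for H4c11 (from H4c12). Whether reads of these neighbours reach the regions was not tested.

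**Figure D5:**
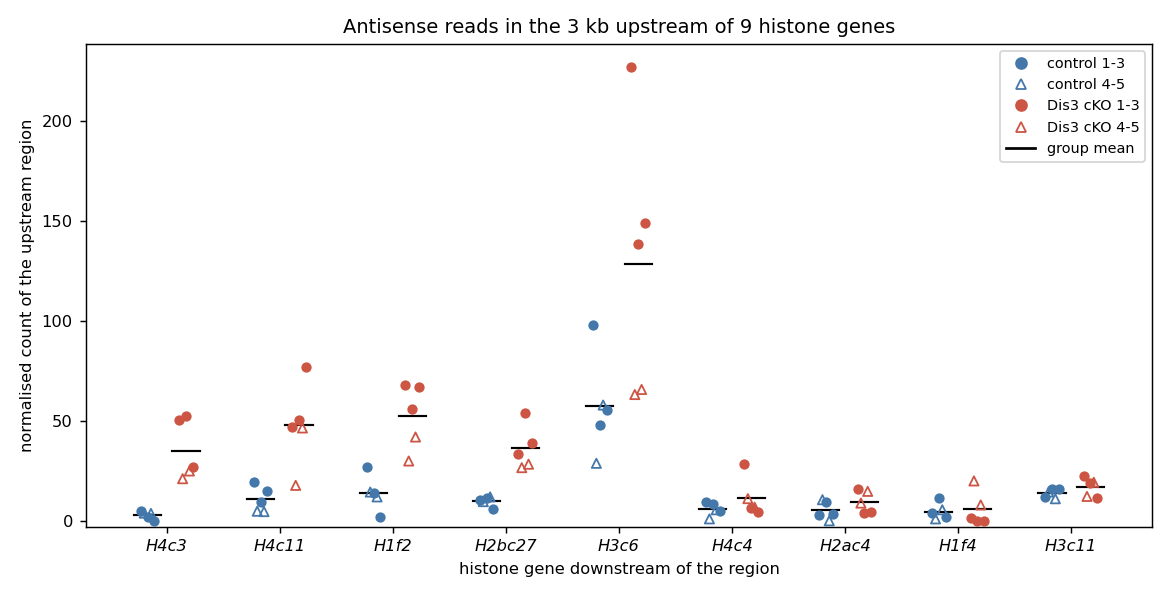
Normalised counts of reads on the opposite strand in the 3000 bases upstream of 9 histone genes, in 5 control and 5 Dis3 cKO libraries (scaled by the gene table's library sizes). Circles are replicates 1 to 3, open triangles replicates 4 and 5, bars the group means. The groups do not overlap for H4c3, H1f2 and H2bc27.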

How the data were processed

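RNA-seq counts of P4 testes from 5 control and 5 Dis3 cKO mice were used, with conditions taken from the labels. Per the labels and headers, cutadapt was used for trimming, HISAT2 for alignment and featureCounts 1.6.4 for counting. Of the deposited tables, the first holds raw sense-strand counts of genes and the second raw antisense counts of PROMPT regions. The headers name GENCODE M18 and the processing notes GRCm38.p5, whereas the methods name a later release, so all coordinates of rows are GRCm38. Multi-mapped reads were not counted by default, which lowers the counts of near-identical histone genes.

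Genes were kept by filterByExpr (minimum count of 10), normalised by TMM and tested across the whole table with the quasi-likelihood test of edgeR 4.0.16 in R 4.3.3, with group as the only term. The threshold was a Benjamini-Hochberg adjusted p under 0.05, two-sided. PROMPT regions with a mean of at least 3 counts were fitted in the same way, with the gene table's library sizes and TMM factors. Single genes were also compared by an exact permutation test of the group means (252 splits). DESeq2 1.42.0, the tool of the study, was an alternative, as were other normalisation and filter settings, library sets and leaving out each library. The script was tested on simulated data. Depth was 28538849 to 41104912 counts per library, and histone rows held 111470 to 234043.

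The members and gene lists were chosen with earlier results of these data known, and no p was adjusted over a list alone. Named members were those past the threshold, the 2 highest of each type and the highest of each chromosome per kilobase, H1f6, H2ac1, H2bc1, and the members with the lowest and highest fold change among those not called. Of each list, up to 4 genes past the threshold with the lowest adjusted p were named, with Slbp, Npat, Dis3, Ddx4, 4 variants and all member PROMPT regions. Other names were chosen after their values were seen. Of 15 variant symbols 12 were matched.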

Additional observations from a re-analysis of the deposited data

Results flagged for a closer look

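In control, H3c15 was at 501 in replicate 5, where the other 4 controls were at 37.4 to 164, a gap that passed Dixon's 95% limit for 5 samples. Of 132 groups of 5 libraries examined over the 66 tested histone genes, 6 passed it (4.55%), and chance alone passes about 1 in 20.

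The fold change differed between replicates 4 and 5 and replicates 1 to 3, by the test of that difference, for 4 named genes. The log2 difference was -0.59 for H1f1, -0.39 for H2ac15, -0.69 for H2bc14 and -1.12 for H2bc3. In each of these the fold change was lower in replicates 4 and 5.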

How the results depend on the processing

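Pooled counts of 7 lower and 1 higher histone gene and a median log2 fold change of -0.29 changed with several settings, and the cause was not tested. DESeq2 called 11 of the 66, and 2200 of all 20043 tested genes. The 11 were those of the pooled fit with H2bc6, H2bc8 and H3c7, which were lower (DESeq2 adjusted p = 0.0272, 0.0418 and 0.034). With no filter on low counts, 17 were lower and 0 higher. With the library set as a term, 17 were lower and 2 higher. Within replicates 1 to 3, 3 were lower and 3 higher, and within replicates 4 and 5, 34 and 3. With the length trend removed, 4 were lower. Leaving out 1 library gave 3 to 14 lower, 0 to 1 higher and a median from -0.42 to -0.17. The lowest count, 3, came without control 5 or without Dis3 cKO 5, it was 4 without Dis3 cKO 1 or 4, and the highest, 14, without Dis3 cKO 3. H2ac1 passed the threshold under all 18 alternatives and H1f1 under 17. For the unfiltered, length-trend and leave-out runs the share of all genes called is not given, so their counts lack a background.

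For the histone supply genes (11 lower, 1 higher), RLE size factors and DESeq2 each gave 2 higher, the library set 27 lower and 5 higher, replicates 1 to 3 alone 3 and 3, replicates 4 and 5 alone 45 and 3, and the length trend 7 and 0. Leaving out 1 library gave 4 to 12 lower and 1 to 2 higher. For the RLE, length-trend and leave-out runs no share of all genes called is given. The 5 histone PROMPT regions called higher numbered 5 in each alternative run.

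Same-numbered libraries shared no source in the labels, and their deviations correlated at 0.083 to 0.183. With the replicate block 23 histone genes were lower and 2 higher, and 18 supply genes lower and 5 higher. The share of all genes called with that block is not given here, so the 2 cannot be compared. Libraries of the same set with other numbers correlated at 0.101 on average, inside that range. Of 10 libraries, 6 correlated best with their own number, and each best match lay in the same library set. The count therefore does not show a pairing by number apart from the sets.

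Signs turned for H2ac15 (0.11) and H2bc14 (0.0034) within replicates 1 to 3, for H2ac21 (-0.28) and H2bc3 (-0.51) within replicates 4 and 5, and for H1f4 (0.0507) and H2ac15 (0.0245) with the length trend removed. Leaving out 1 library gave -0.0797 to 0.0401 for H1f4, -0.11 to 0.0573 for H2ac15 and -0.0615 to 0.24 for H2bc3. The H1f4 PROMPT was at -0.62 with the replicate block and -0.99 to 0.94 with 1 library left out. Rows with few counts, such as H2ac5-ps, give imprecise estimates.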

Other observations

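Some members outside the naming rule held 1 library far from the others of its group. H2ac5-ps was at 484 in control 3, where the other controls were at 4.79 to 19.6, and at 317 in Dis3 cKO 5, where the others were at 15.5 to 31.3. H4c17 was at 432 in Dis3 cKO 4, with the others at 87.2 to 143. H2ac7 was at 653 in Dis3 cKO 3, with the others at 106 to 245. In controls, H3c2 was at 1052 in replicate 1, with the others at 450.2 to 615.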
